A study of Oryza sativa with 12 samples.

Results

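LOC_Os08g41910 and LOC_Os04g46100 are a pair of rice genes whose leaf signals were far higher under long-day (LD) than under short-day (SD) conditions. LOC_Os08g41910 is annotated by the authors as protein yciO, and its locus ID places it on chromosome 8. LOC_Os04g46100, on chromosome 4, is annotated as a protein of unknown function. Both were chosen by their ID and because the mean LD signal was over 5 times the mean SD signal, LOC_Os08g41910 in the deposited table of the glume primordium differentiation stage (G) and LOC_Os04g46100 in that of the pistil/stamen primordium forming stage (P). They are 2 of the 275 genes or transcripts that the tables of the 2 stages hold together. The difference between SD and LD is therefore what chose them, and it is described below without a test.

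The plants were Nongken 58S, a japonica rice line that is male sterile in long days and partly fertile in short days, so the comparison of SD with LD follows leaves in both fertility conditions. All plants, the later LD plants included, had first been given SD (10 h light and 14 h dark) to start reproductive growth, and were then kept in SD or moved to LD (15 h light and 9 h dark) at the secondary branch stage of the inflorescence. RNA came from the second fully expanded leaf, taken at 02:00 h, as 3 biological repeats in each of 4 groups: G-SSD and P-SSD in SD, and G-SLD and P-SLD in LD. Each repeat was hybridised to 1 Affymetrix rice array, and the labels do not say whether a repeat was 1 plant or a pool. Day length is thus compared within 1 line at 1 clock time, and neither the parent Nongken 58 nor other hours are in these groups.

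In flowering plants the leaf measures day length by setting light signals against its circadian clock, and in rice short days lead the leaf to make the florigen that promotes flowering. The clock also gives many leaf transcripts a daily peak, so a level at a fixed hour depends both on the amount made over the day and on the hour of the peak. The name yciO comes from Escherichia coli, where YciO belongs to the same protein family as YrdC. YrdC and its yeast relative Sua5 make the threonylcarbamoyl group that is placed on certain transfer RNAs beside the anticodon, which helps the ribosome to read their codons accurately. What the rice yciO-like protein does is not established by this annotation, and for LOC_Os04g46100 the files give no role.

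At the glume primordium differentiation stage the signal of LOC_Os08g41910 was 36.5, 50.5 and 44.2 in repeats 1 to 3 of G-SSD. In G-SLD it was 423, 255 and 342 in the same order. All 3 LD arrays were above all 3 SD arrays, with no overlap, and repeat 2 was both the highest of the SD arrays and the lowest of the LD arrays. On the arrays as a whole every LD signal was above every SD signal in 3.9% of the 25360 probe sets that passed a filter on low signals. The means were 43.7 ± 7.01 in SD and 340.1 ± 84.2 in LD (SD of the repeats, n = 3 arrays each), a ratio of LD to SD of 7.78. On the log2 scale the difference of SD minus LD was -2.94 with a standard error of 0.25 from these 6 arrays. Set against the SD array of the same repeat number, the LD signal was 11.6 times as high in repeat 1, 5.05 times in repeat 2 and 7.73 times in repeat 3.

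At the pistil/stamen primordium forming stage LOC_Os04g46100 had signals of 45.8, 70.7 and 62.7 in repeats 1 to 3 of P-SSD. In P-SLD the signals were 559, 581 and 452. The groups again did not overlap, as in 4.84% of the probe sets kept at this stage, and the lowest LD signal was 6.39 times the highest SD signal. The means were 59.7 ± 12.7 in SD and 531 ± 69.3 in LD (SD of the repeats, n = 3 arrays each), a ratio of LD to SD of 8.89. The log2 difference of SD minus LD was -3.17 with a standard error of 0.22. By repeat number the LD signal was 12.2, 8.23 and 7.20 times the SD signal, highest in repeat 1, where the SD signal was lowest. Repeat 1 was the lowest SD array in 54 of the 103 listed genes higher in LD at this stage, so this position is widely shared. The P-SSD array of repeat 1 also stood apart in a control: the 3' probe set of the rice array's bioD spike-in read 142.5 there and 1937 to 2639 on the other 11 arrays. Without that array the log2 difference was -2.99.

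**Figure D1:**
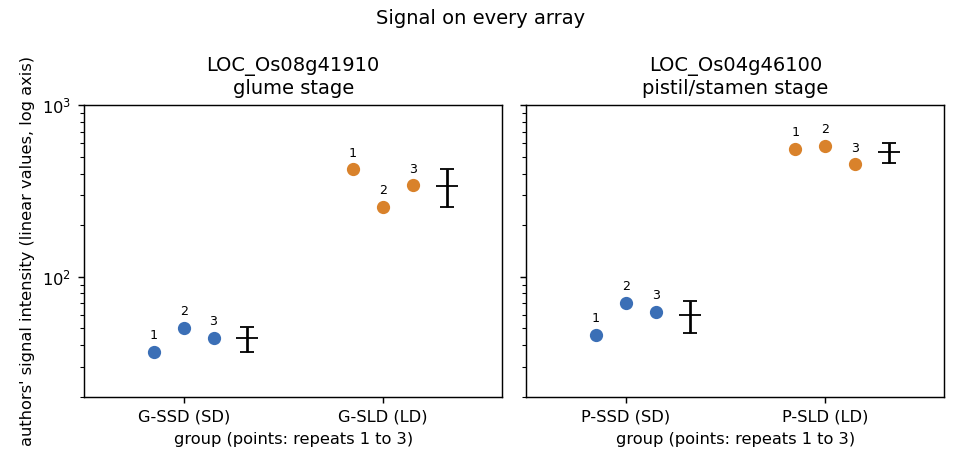
The authors' signal intensity (log axis) of LOC_Os08g41910 in G-SSD and G-SLD and of LOC_Os04g46100 in P-SSD and P-SLD, with a numbered point for each repeat and the mean ± SD of 3 arrays beside it. SD signals of LOC_Os08g41910 end at 50.5 and its LD signals begin at 255, and for LOC_Os04g46100 these limits are 70.7 and 452.

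Neither gene was listed at the other stage. The table of the glume stage holds 1 row for LOC_Os08g41910 and 0 rows for LOC_Os04g46100, and that of the pistil/stamen stage holds 0 rows and 1 row. Every entry of the tables had group means at least 2-fold apart. The paper counts fewer genes at each stage after its own P value cut, so these lists are wider than its gene sets. A looser cut by a p-value may still have been made. The lowest ratio of a log2 difference to its standard error was 2.23 in the table of the glume stage and 2.14 in the other. Absence from a table therefore gives no value, and it does not show a fold under 2. The signal of each gene at the other stage was not analysed here, and no test between the stages was made. Being listed once was the common case: of the 48 genes higher in LD at the glume stage 16 (33.3%) were also in the other table, 14 of them higher in LD there too. Of the 103 genes higher in LD at the pistil/stamen stage 14 (13.6%) were also in the table of the glume stage. All 7 genes over 5-fold higher in LD, 3 at the glume stage (2.86% of its list) and 4 at the pistil/stamen stage (1.99%), were listed at 1 stage alone.

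Within its table, each of the pair had the widest distance between its groups among the genes higher in LD. The lowest LD signal of LOC_Os08g41910 was 5.05 times its highest SD signal. The next of the 48 genes was LOC_Os02g46850, annotated as oligopeptide transporter 4, at 4.13, and the median was 1.55. For LOC_Os04g46100 at 6.39 the next of the 103 genes was LOC_Os02g03670 at 3.58, with a median of 1.35. By the ratio of means LOC_Os04g46100 was first of the 103 genes and LOC_Os08g41910 second of the 48 genes. Every LD signal was above every SD signal in 45 of the 48 genes higher in LD at the glume stage. At the pistil/stamen stage it was so in 93 of the 103 genes. These are 42.9% of all 105 listed genes at the glume stage and 46.3% of the 201 entries at the pistil/stamen stage. Entries higher in SD cannot meet this condition. Among the 201 entries LOC_Os03g43720, higher in SD, stands in 2 and the others are 1 gene each. Lack of overlap alone was thus the rule among listed genes higher in LD, for which a low spread may have been required as well. These positions come from the contrast that chose the genes and are given as a description.

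**Figure D2:**
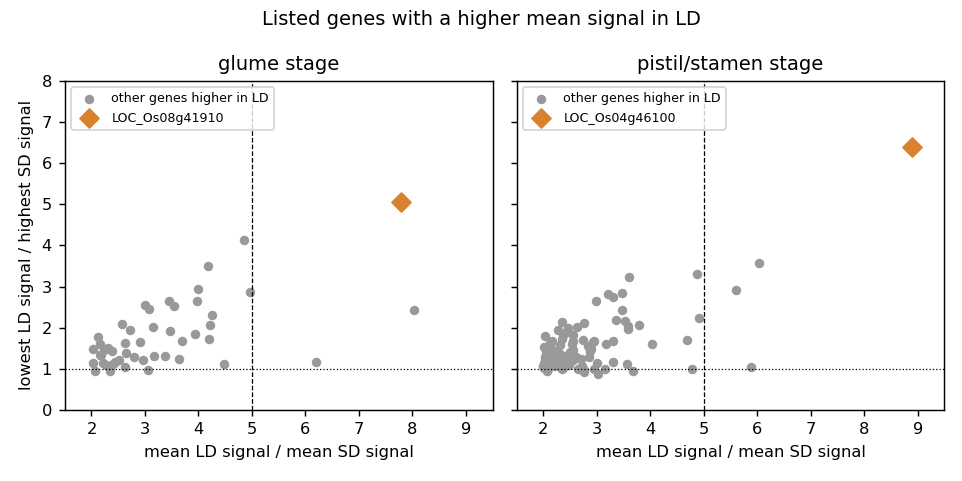
Each listed gene with a higher mean signal in LD, by the ratio of the mean LD signal to the mean SD signal (x axis) and the ratio of the lowest LD signal to the highest SD signal (y axis), with a dashed line at a ratio of 5 and a dotted line at 1, above which the groups do not overlap. LOC_Os08g41910 lies at 7.78 and 5.05, and LOC_Os04g46100 at 8.89 and 6.39, each the highest point of its panel.

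The other genes past the same threshold had larger standard errors of their log2 differences at both stages. OsGI (LOC_Os01g08700), the rice GIGANTEA gene, which acts between the clock and flowering, had the ratio of 8.03 that exceeded that of LOC_Os08g41910. Its LD signals of 432, 303 and 100.6 spread widely, and its log2 difference of -2.79 had a standard error of 0.66, against 0.25 for LOC_Os08g41910. LOC_Os10g25060, of unknown function, had a ratio of 6.19, but its LD signal in repeat 1 was 67.0, against a highest SD signal of 57.2. Just outside the threshold lay the receptor-like kinase gene LOC_Os02g13430, at 4.97. The coefficient of variation among the repeats of LOC_Os08g41910 was 16.03% in SD and 24.8% in LD, where the medians over the 48 genes were 28.4% and 24.4%.

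Among the genes of the later stage, LOC_Os02g03670, of unknown function, had a ratio of 6.03 and a standard error of the log2 difference of 0.35, against 0.22 for LOC_Os04g46100. LOC_Os03g16450, annotated as a pentatricopeptide repeat protein, had a ratio of 5.89 with a standard error of 1.17, and its SD signals ran from 6.57 to 68.3. Its highest SD signal was just below its lowest LD signal of 70.4. LOC_Os03g59250, of unknown function, had a ratio of 5.61, and its SD signal in repeat 3 was 76.2, against 25.7 and 23.1 in the other two. LOC_Os11g05550, also of unknown function, lay just outside the threshold at 4.92. For LOC_Os04g46100 the coefficient of variation was 21.3% in SD and 13.1% in LD, and the medians over the 103 genes were 36.0% and 22.4%.

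The ratios over 5-fold stood beside low SD signals. The SD mean is the divisor of this ratio, so low SD ranks come in part with the threshold itself. All 3 such genes at the glume stage were among the 9 lowest SD means of the 48 genes higher in LD, and all 4 at the pistil/stamen stage were below the median SD mean of the 103 genes. From the lowest SD mean upwards, LOC_Os08g41910 was ninth of the 48 genes higher in LD, whose median SD mean was 83.0. LOC_Os04g46100 stood at place 33 of the 103 genes, with a median of 89.1. From the highest LD mean downwards they were at place 21 and place 22, and their LD means were above the medians of 281 and 255. No background signal was measured here, so how much of the SD signals of 43.7 and 59.7 is specific is not known.

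A second deposited table gives signals of 57194 probe sets, controls left out, on all 12 arrays, without gene names, and it shows how common such differences were on the arrays. After quantile normalization, 24 of the 25360 probe sets kept had a mean LD signal over 5 times the mean SD signal at the glume stage (0.0946%), and 63 did at the pistil/stamen stage (0.248%). The stricter condition that the lowest LD signal exceed 5 times the highest SD signal was met by 0 probe sets at the glume stage and by 2 at the pistil/stamen stage (0.00789%). The counts over 5-fold higher in LD rose when any 1 array of the SD group was left out. They were 76, 59 and 59 without repeat 1, 2 or 3 of G-SSD, and 95, 150 and 240 without repeat 1, 2 or 3 of P-SSD. The counts over 5-fold higher in SD, 15 and 56, rose likewise when any 1 array of the LD group was left out. Those were 39, 57 and 39 without repeat 1, 2 or 3 of G-SLD, and 112, 170 and 112 without repeat 1, 2 or 3 of P-SLD. The pair was chosen for this contrast, so the shares are given as background alone.

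The probe set signals were processed apart from the authors' signals of listed genes. At the glume stage 0 of the 25360 probe sets kept had a distance between the groups as wide as that of LOC_Os08g41910. This held under each of 3 normalizations. Among the 11708 probe sets with a mean LD signal of at least 100 after quantile normalization, the largest ratio of the lowest LD signal to the highest SD signal was 4.12, against the 5.05 of LOC_Os08g41910 in the authors' table. At the pistil/stamen stage 0 probe sets reached the 6.39 of LOC_Os04g46100 after quantile normalization or as deposited, and 1 did with each array centred on its median. The ratio of means of each of the pair was equalled or passed by 8 and 12 of the probe sets kept, at the glume and the pistil/stamen stage. Among all 57194 probe sets, dim ones included, 27 and 12 had so wide a distance between the groups. No probe set had the pair's signals, to within 0.001, on even 1 array of their stage, so the tables do not hold the same values of these genes. The separation described above is one in the authors' signals of listed genes. The probe sets of the pair could not be identified, so whether they were among those kept is not known. If that of LOC_Os08g41910 was kept, it did not separate as widely in the probe set signals, since 0 did. For LOC_Os04g46100 the same holds after quantile normalization and as deposited. The counts therefore do not show how rare the pair's separation was.

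The genes most like LOC_Os08g41910 over the 6 arrays of the glume stage were taken as the 5 listed genes with the highest Pearson correlation of log2 signals. These arrays share the step between SD and LD, and all listed genes differ by at least 2-fold at that step, so high values are the rule: the median over the other 47 genes higher in LD was 0.86. LOC_Os02g38970, annotated as a MIB2-type ubiquitin ligase, a class of enzyme that marks other proteins with ubiquitin, came first with r = 0.994. It had a mean signal of 38.5 ± 2.87 over the G-SSD arrays and 161 ± 18.4 over the G-SLD arrays (SD of 3 repeats), a ratio of 4.19. LOC_Os03g15920, of unknown function, followed with r = 0.991, a ratio of 3.99 at this stage and one of 2.73 at the pistil/stamen stage. OsPRR37 (LOC_Os07g49460), a pseudo-response regulator of the clock that delays flowering in long days in rice, had r = 0.984 and a ratio of 3.00.

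LOC_Os02g46850, the oligopeptide transporter gene, had r = 0.981 and a ratio of 4.85. It was listed in the opposite direction at the pistil/stamen stage, 5.45 times as high in SD as in LD. LOC_Os05g51150, annotated as a sigma factor of RNA polymerase, had r = 0.973 and a ratio of 3.15, with one of 2.61 at the pistil/stamen stage. Sigma factors guide the bacterial-type RNA polymerase to its promoters, and in plants they work in the chloroplast. With the group means taken out, the correlation with LOC_Os08g41910 ran from -0.09 for LOC_Os02g46850 to 0.78 for LOC_Os02g38970 over the same 6 arrays.

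For LOC_Os04g46100 the median correlation with the other 102 genes higher in LD at the pistil/stamen stage was 0.88. The 5 highest belonged to LOC_Os07g01950 (r = 0.991), LOC_Os04g41200 (r = 0.988), LOC_Os11g41600 (r = 0.988), LOC_Os01g16620 (r = 0.985) and LOC_Os11g04920 (r = 0.979). LOC_Os04g41200 has an annotation that the file spells "ipase family protein", and the others are annotated as unknown. Their ratios of LD to SD ran from 2.28 for LOC_Os01g16620 to 3.61 for LOC_Os04g41200, well below the 8.89 of LOC_Os04g46100. None was listed at the glume stage. LOC_Os07g01950, the most alike, had a mean signal of 470.2 ± 82.5 over the P-SSD arrays and 1295 ± 107 over the P-SLD arrays (SD of 3 repeats). With the group means taken out, the correlations ran from -0.87 for LOC_Os11g04920 to 0.80 for LOC_Os07g01950.

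**Figure D3:**
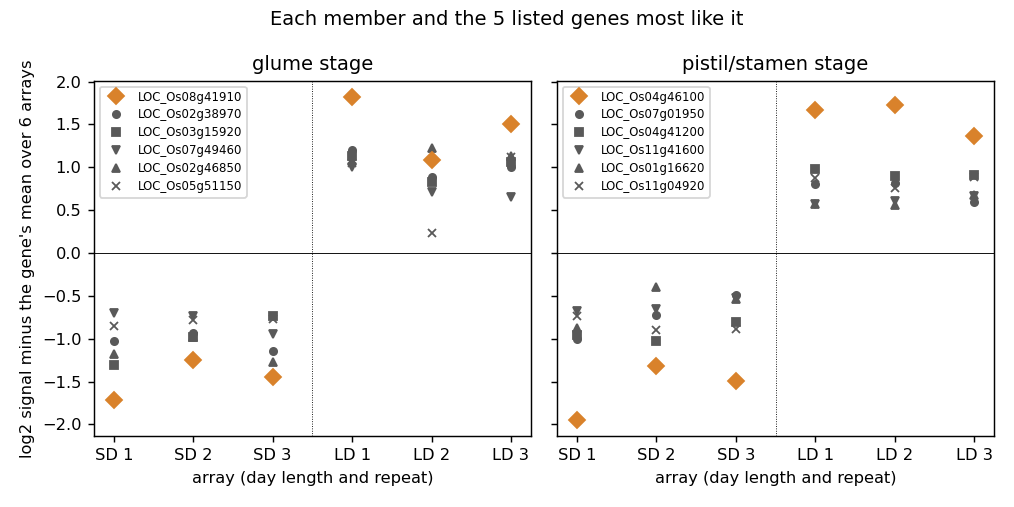
Log2 signal minus the gene's own mean over 6 arrays (y axis) on each SD and LD array (x axis), for each of the pair (diamonds) and the 5 listed genes with the highest correlation to it. The diamonds lie farther from 0 than the other genes on every array but LD repeat 2 at the glume stage, where LOC_Os02g46850 is higher. The diamonds have ratios of LD to SD of 7.78 and 8.89, and the other genes have ratios from 2.28 to 4.85.

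Because YrdC and Sua5 act in making transfer RNAs fit for translation, listed genes were counted beside LOC_Os08g41910 where their annotation held one of these words: tRNA, rRNA, RNA methyltransferase, translation initiation, ribosom, pentatricopeptide, PPR, sigma factor or RNA processing. The words leave out splicing annotations and an mRNA exonuclease, which are given after the others. Neither list is complete. LOC_Os01g72820 (CFM6), LOC_Os07g41570 (a DEAD/DEAH box helicase) and LOC_Os09g37949 (SRPK1), all higher in SD at the pistil/stamen stage, are in neither. At the glume stage 4 listed genes held such a word, 2 higher in LD and 2 higher in SD, where 48 of all 105 listed genes were higher in LD. Those higher in LD were the sigma factor gene LOC_Os05g51150 and LOC_Os05g37520, annotated with HAT and TPR motifs of RNA processing. The latter had signals of 177, 241 and 183 in SD and 555, 352 and 437 in LD, a ratio of 2.24. Its repeats followed the same order as those of LOC_Os08g41910, with repeat 2 highest in SD and lowest in LD. Repeat 2 was the lowest LD array in 17 of the 48 genes higher in LD, so that position is widely shared. In LOC_Os05g51150 repeat 2 was also lowest in LD, but repeat 3 was highest in SD. The pair higher in SD were further sequences annotated as sigma factors, AK105697 and AB096011, at 2.86 and 2.61 times the LD signal. The listed sigma factor sequences thus lay on both sides.

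At the pistil/stamen stage 8 listed genes held such a word, 5 higher in LD and 3 higher in SD, where 103 of all 201 entries were higher in LD. LOC_Os08g39600, an RNA methyltransferase of the TrmH family, whose bacterial members methylate ribose in transfer or ribosomal RNA, had a ratio of LD to SD of 2.11. LOC_Os07g47420, annotated as NIP7, a factor in making the large ribosomal subunit, had 2.05, and LOC_Os10g28600, annotated as the pentatricopeptide repeat protein PGR3, which in Arabidopsis acts on chloroplast RNA, had 2.90. LOC_Os05g51150 and LOC_Os03g16450 were the other two. Higher in SD were LOC_Os04g47860, annotated as translation initiation factor IF-2, at 3.46 times the LD signal, a subunit of the initiation factor eIF3 (LOC_Os10g41960) at 2.08 times and the pentatricopeptide repeat gene LOC_Os03g13830 at 6.08 times. In LOC_Os03g13830 the groups overlapped, with an LD signal of 244 in repeat 2 and an SD signal of 239.7 in repeat 3.

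Entries whose annotation held splicing, snRNP or mRNA exonuclease were added after seeing the data, by these words alone. LOC_Os01g21420, annotated as the pre-mRNA splicing factor SF2, was higher in SD at both stages, at 2.06 times the LD signal at the glume stage and 2.01 times at the pistil/stamen stage. LOC_Os03g18550, annotated as the mitochondrial RNA-splicing protein MRS3, was 3.05 times as high in SD. Higher in LD were LOC_Os07g10810, annotated as a putative U2 snRNP auxiliary factor, at 4.78 times the SD signal, and LOC_Os01g17279, annotated as histone mRNA exonuclease 1, at 2.55 times. With these entries the counts were 5 at the glume stage, 2 higher in LD and 3 in SD, and 12 at the pistil/stamen stage, 7 higher in LD and 5 in SD. Genes in neither list, such as those named above, are not in these counts, which depend on the words chosen.

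The log2 differences (SD minus LD) of the 4 genes at the glume stage had a median of 0.20, against 1.02 over all listed genes there, and the median was 1.23 once the splicing factor was added. At the later stage the median was -1.05 over the 8 genes, -1.05 with the added entries and -1.02 over all entries. All listed entries had group means at least 2-fold apart, so the median of 0.20 lies between the sides and matches no gene. The medians over all listed genes or entries follow the side that held more of them. With so few genes the medians of these lists describe the listed members alone. The median of the glume stage moved from below to above that of all listed genes with 1 added gene, and no contrast is drawn from it. Genes of the same functions that were not listed have no value here.

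**Figure D4:**
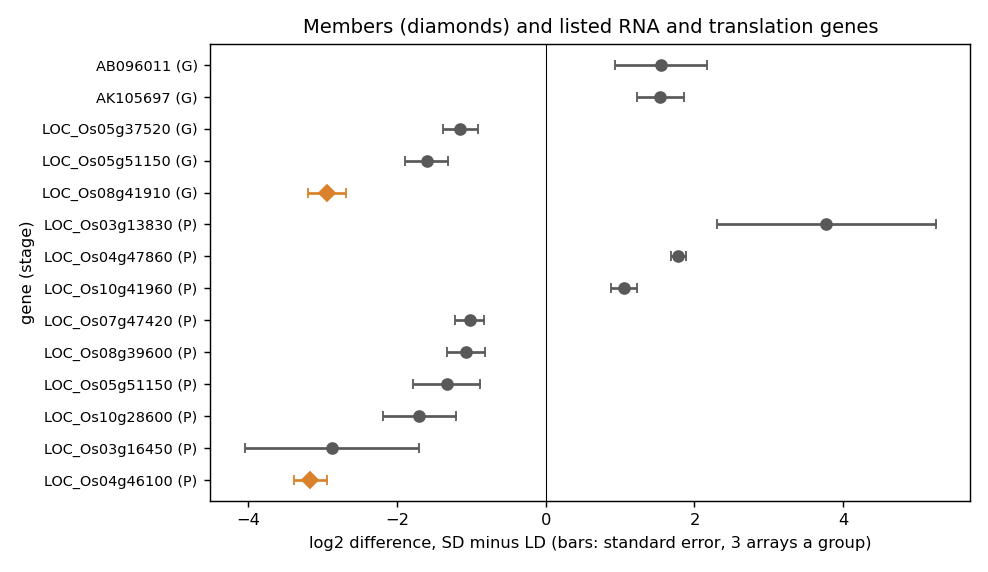
Log2 difference of SD minus LD (x axis, bars show the standard error from 3 arrays in each group) for the pair (diamonds) and the 12 listed entries that hold one of the annotation words for RNA and translation, at the glume stage (G) and the pistil/stamen stage (P). LOC_Os08g41910 at -2.94 lies below the 4 entries of its stage, which run from -1.60 to 1.56. LOC_Os04g46100 at -3.17 lies below the 8 of its own, which run from -2.87 to 3.77. The pair was chosen for a large difference towards LD, so its position beside these entries is a description alone. The annotation of LOC_Os04g46100 gives no link to RNA or translation.

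LOC_Os04g46100 belongs to a large class of listed genes with no known function. In the table of its stage 59 of the 201 entries were annotated as unknown or hypothetical, 28 of the 103 higher in LD (27.2%) and 31 of the 98 entries higher in SD (31.6%). Of the 4 genes over 5-fold higher in LD at that stage 3 were of this class, LOC_Os04g46100 among them. At the glume stage 25 of the 105 listed genes were of unknown function, 13 of them higher in LD.

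Rice locus IDs are numbered along each chromosome, so nearby numbers mark nearby genes. Most of the listed locus numbers end in 0, so a distance in locus numbers is not a count of genes. Within 100 locus numbers of LOC_Os08g41910, 1 other gene was listed, LOC_Os08g41850, of unknown function, 60 numbers away. At the glume stage its signals were 132, 110.1 and 124 in SD and 634, 146 and 855 in LD, a ratio of LD to SD of 4.47. As for LOC_Os08g41910, repeat 2 was the lowest of the LD arrays, and here it was only 1.10 times the highest SD signal. Repeat 2 was also the lowest LD array in 17 of the 48 genes higher in LD, so the position is shared with many listed genes. Within 100 locus numbers of LOC_Os04g46100, 0 genes were listed at either stage.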

How the data were processed

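Leaf RNA was measured on 12 arrays, 3 repeats in each of 4 groups, with groups and repeat numbers taken from the sample titles. Per the labels, GCOS 1.4 produced the deposited linear signal intensity of 57381 probe sets. The authors also deposited, for each stage, the linear intensity of genes that differed at least 2-fold, with a cut by a p-value possible, which the methods describe as dChip invariant-set normalized the background being 5% of the perfect-match signals. These tables also hold the authors' fold (a ratio of SD to LD means) and P value, which were deposited but not used. In the table for the glume stage the column headings carry the letter P. They were read as the glume stage because the same values stand under G headings in the study's own supplement.

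Means, SDs, ratios and log2 differences with standard errors were computed in Python 3.11.15 with numpy 2.4.6 and pandas 2.3.3. Because array medians ran from 6.92 to 9.18, a ratio over 1.2, the probe set signals were quantile normalized. Left out were 187 controls and reporters, and probe sets lying under their array's 60th percentile on more than 9 arrays, which left 25360. The counting step was tested on simulated data: with the mean signals of the real arrays, and LD set against SD at the glume stage, 185 of 200 probe sets set to an 8-fold difference, of 25360, passed 5-fold. The 2 genes and the lists, among them the 5 genes most alike, locus neighbours within 100 numbers and the annotation words, were chosen with earlier results of these data known. At the pistil/stamen stage same-numbered SD and LD arrays deviated together (r = 0.22, 0.29 and 0.51), a pairing that comes from the data alone. At the glume stage r was 0.20, -0.0015 and 0.32. A planned limma fit of each gene at the other stage was not run, since no table used here pairs probe sets with genes, and RefSeq held neither locus ID. The number of arrays limits the precision.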

Additional observations from a re-analysis of the deposited data

How the results depend on the processing

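The direction of both genes was the same under every setting run. Since their groups did not overlap, none of these settings could have reversed it, so only the sizes are of use. The log2 difference of SD minus LD of LOC_Os08g41910 was -2.55 with 16 added to each signal, which shrinks low signals most, and -3.13 to -2.77 with 1 array left out. For LOC_Os04g46100 it was -2.86 with 16 added and -3.30 to -2.99 with 1 array left out. With the replicate number as a block the differences were -2.94 and -3.17 as before, with standard errors of 0.35 and 0.23. The number of probe sets over 5-fold higher in LD was 24 at the glume stage and 63 at the pistil/stamen stage. It was 783 and 798 without the filter on dim probe sets, 8 and 17 at over 8-fold, and 727 and 866 without filter or normalization, a setting chosen after seeing the data. With 1 array left out it ran from 25 to 76 and from 55 to 240. Nothing measured here separates dim signals from background, which limits ratios at low SD levels.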
